A study of Mus musculus with 2 samples.

Results

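Il1a, Il1b, Il1r2 and Tnf were read, by name, as 4 of the 2000 gene rows of a single-cell RNA table from mouse pancreatic tumors, and all 4 were found. They encode interleukin-1 alpha, interleukin-1 beta, the interleukin-1 decoy receptor and tumor necrosis factor. Tumors of the KPC organoid line MT4 had been grown orthotopically in the pancreas of C57/BL6 mice for 14 days, dissociated, and sorted for live cells with the dye DAPI. The Ahr_cKO library came from mice with Ahr fl/fl alleles and LysM-Cre, and the fl_fl library from mice with Ahr fl/fl alleles alone, so both groups carried the floxed alleles. The LysM promoter drives Cre chiefly in neutrophils, monocytes and macrophages. Whole tumors of 3 mice were pooled into 1 10X Genomics library per genotype. With 1 library per genotype no difference between genotypes has a replicate check, and none was tested.

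Interleukin-1 alpha and interleukin-1 beta bind the same receptor, IL1R1, which signals through MYD88 to NF-kB. Interleukin-1 beta is made as an inactive precursor that an inflammasome protease cleaves, whereas the interleukin-1 alpha precursor is already active and can act when cells are damaged. The decoy receptor IL1R2 binds interleukin-1 but lacks a signalling domain, and neutrophils are a known source of it. Tumor necrosis factor is a trimeric membrane protein that is shed from myeloid cells and T cells, signals through TNFR1 and TNFR2, and also leads to NF-kB. AHR, the aryl hydrocarbon receptor, is a ligand-activated transcription factor that binds DNA whose core letters are GCGTG. In pancreatic tumors interleukin-1 beta is known from macrophages and neutrophils as well as from tumor cells.

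The promoters are shown because the 3 cytokine genes are known to be induced quickly by inflammatory signals, and because the genotype concerns a factor that binds DNA. RefSeq (GRCm38.p6) gave the 250 bases before each start site, written 5′ to 3′ on the gene's own strand. Capitals mark TATAAA in Il1a, Il1b and Tnf and, in Il1r2, CACGC, which reads GCGTG on the other strand.
Il1a, chr2:129309973-129310222, minus strand: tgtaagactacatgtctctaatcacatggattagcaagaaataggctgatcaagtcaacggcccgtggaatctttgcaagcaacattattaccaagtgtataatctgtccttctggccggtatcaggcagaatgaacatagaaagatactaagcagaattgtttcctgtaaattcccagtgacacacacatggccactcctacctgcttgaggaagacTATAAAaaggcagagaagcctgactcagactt
Il1b, chr2:129371140-129371389, minus strand: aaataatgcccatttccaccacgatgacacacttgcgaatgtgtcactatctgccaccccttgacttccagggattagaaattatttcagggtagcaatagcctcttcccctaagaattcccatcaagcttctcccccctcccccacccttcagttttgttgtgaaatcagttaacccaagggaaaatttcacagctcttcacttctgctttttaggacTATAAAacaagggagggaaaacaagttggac
Il1r2, chr1:40085843-40086092, plus strand: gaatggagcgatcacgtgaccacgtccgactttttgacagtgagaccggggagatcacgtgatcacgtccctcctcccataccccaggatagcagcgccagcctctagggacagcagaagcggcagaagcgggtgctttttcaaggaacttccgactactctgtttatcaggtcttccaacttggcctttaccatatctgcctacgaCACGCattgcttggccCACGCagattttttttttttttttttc
Tnf, chr17:35202008-35202257, minus strand: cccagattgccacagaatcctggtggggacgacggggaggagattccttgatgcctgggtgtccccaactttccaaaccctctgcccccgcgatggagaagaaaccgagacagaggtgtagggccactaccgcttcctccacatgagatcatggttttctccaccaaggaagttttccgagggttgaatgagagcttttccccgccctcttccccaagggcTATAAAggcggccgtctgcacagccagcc
The 3 cytokine promoters each held 1 TATAAA, at 32 to 27 bases before the start of Il1a, at 31 to 26 bases in Il1b and at 29 to 24 bases in Tnf. TATAAA, searched on both strands, occurred in 12.4% of 32817 promoters of the same length. The decoy receptor's promoter held none and had GCGTG on the other strand in 2 places, at 43 to 39 and at 27 to 23 bases before the start, a motif found on either strand in 28.1% of promoters. No match to the kappaB motif of NF-kB, to the C/EBP letters TTGCNNAA or to the PU.1 letters GAGGAAGT was found on either strand in any of the 4 windows, where 7.25% of all windows held the kappaB motif, 9.57% TTGCNNAA and 2.44% GAGGAAGT. These matches are letters in a window and not binding sites. In the GENCODE annotation of the same build Il1a (129299610 to 129309972) and Il1b (129364570 to 129371139) lie on the minus strand of chromosome 2, 54598 bases apart. Tnf lies at 35199381 to 35202007 on the minus strand of chromosome 17. Il1r2 spans 40074079 to 40125231 on the plus strand of chromosome 1, and the RefSeq start used for its window lies inside that span.

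The table held 4577 Ahr_cKO and 5196 fl_fl cells as scaled scores, that is, each gene's value centred and divided by its spread, cut at 10. In the fl_fl library the scores stepped in whole molecules, so the number of unique molecular identifiers (UMIs, 1 per captured RNA) could be recovered for each cell and gene: 99.98% of 790971 values were whole to within 0.01. All uncut fl_fl values of the 4 genes were whole. A cell without a UMI had a score of -0.08 for Il1a, -0.30 for Il1b, -0.21 for Il1r2 and -0.17 for Tnf, called the zero level here. Ahr_cKO values carried a further shift that varied by cell and by gene, so their UMIs could not be recovered and their scores are the only measure. Over the measured genes a fl_fl cell held a median of 262 UMIs, with 5% of cells at or below 63 and 5% at or above 3529. Depth below is not this count but 1 divided by the step that 1 UMI makes in a cell, relative to the median of fl_fl cells. A thinned share is the share of cells that would keep a UMI at a relative depth of 0.444, with shallower cells left out. Intervals are exact binomial 95% intervals and cover counting error only.

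Cells were clustered without the 4 genes, which gave 24 clusters, and a cluster was called X-like from marker genes. The tumor's labelled origin was met by clusters led by keratins (Krt8, Krt19), called Tumor epithelial-like. Neutrophil-like cells (250 Ahr_cKO and 278 fl_fl) were led by Csf3r, Hdc, Cxcr2 and Mmp9. Immature neutrophil-like cells (224 and 330) were led by the granule genes Camp, Ngp and Ltf. Macrophage-like cells joined cluster 10, led by C1qa and Apoe, and cluster 20, led by Arg1 and Fn1. The cDC2-like cells (73 and 142) were led by Cd209a, H2-DMb1, Clec10a and Cd209d, and 3 of 7 listed markers were measured. Naming did not set this class against plasmacytoid dendritic cells. With 15 principal components the cDC2-like cluster was also led by the plasmacytoid markers Cox6a2, Siglech and Ccr9, so the class may be mixed. Cluster 0 (334 and 346 cells), led by Vim, Atf3, Fcgr1, Ccl2 and Cd14, met no class and stayed unnamed.

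The libraries shared 656 cell barcodes, and the 2 cells of a shared barcode were alike. In 624 pairs (95.1%) both cells fell in the same cluster. Of the fl_fl cells, 541 (82.5%) were more like their own partner than any other Ahr_cKO cell with a shared barcode. The shared barcodes made up 331 of 334 Ahr_cKO and 326 of 346 fl_fl cells of cluster 0. In Classical monocyte-like cells they made up 207 of 314 Ahr_cKO and 215 of 354 fl_fl cells, and in cDC2-like cells 37 of 73 and 39 of 142. Only 10 of 250 Ahr_cKO and 11 of 278 fl_fl Neutrophil-like cells had one. Over 318 pairs within cluster 0, the scores of the 2 cells of a pair correlated at r = 0.880 for Il1b, 0.653 for Il1r2, 0.453 for Tnf and 0.302 for Il1a. The genotypes were therefore not compared in cluster 0 or in cDC2-like cells without these barcodes, since fewer than 50 cells were left in a library, and the values of other classes that rest most on them are given with and without them. Ahr itself averaged 0.22 in Ahr_cKO and 0.09 in fl_fl Macrophage-like cells (a difference of 0.13, also 0.13 without the shared barcodes, and -0.02 and -0.07 with 2 estimates of the Ahr_cKO shift removed), and -0.24 in Ahr_cKO and -0.22 in fl_fl Neutrophil-like cells. Of fl_fl Neutrophil-like cells 2 of 278 had an Ahr UMI. Among the classes compared, Ahr's difference was lowest in cDC1-like cells, where 34.3% of fl_fl cells had a UMI. It was -0.205 there, -0.225 without the shared barcodes, and -0.31 and -0.30 with the shift estimates removed. The highest was in cDC2-like cells, at 0.34, and at 0.26 and 0.20 with the shift estimates removed. The counted 3′ tags may lie outside the deleted exons, which the sources used here do not give, so Ahr's score does not check the labels.

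Il1b, the secreted interleukin-1 agonist, was highest in Neutrophil-like cells in both libraries. There it averaged 2.32 (SD 2.66 over 250 cells) in Ahr_cKO and 2.29 (SD 2.66 over 278 cells) in fl_fl. Cluster 0 came next, at 0.63 (SD 1.29) in Ahr_cKO and 0.58 (SD 1.07) in fl_fl. The following classes were cDC2-like cells (0.29 in Ahr_cKO and 0.13 in fl_fl), Classical monocyte-like cells (0.14 and 0.11) and Macrophage-like cells (0.03 and 0.02), in the same order in both libraries. Without the shared barcodes Classical monocyte-like cells were at -0.14 in Ahr_cKO and -0.09 in fl_fl, and Macrophage-like cells at -0.06 and -0.03. The step from Neutrophil-like cells to cluster 0 was smaller than the SD over Neutrophil-like cells but larger than that over cluster 0 cells, and every later step among these classes was smaller than the SD over the cells of either neighbour.

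In the fl_fl library 224 of 278 Neutrophil-like cells had an Il1b UMI, which is 80.6% (75.4 to 85.1), and the thinned share was 80.4%. Cluster 0 had 74.9% (69.9 to 79.3), an interval that overlapped that of Neutrophil-like cells, but its thinned share was 60.7%. Lower shares were found in Classical monocyte-like cells (50.8%, 45.5 to 56.2), in Macrophage-like cells (289 of 629, 45.9%), in Migratory DC-like cells (20 of 50), in cDC2-like cells (36.6%) and in cDC1-like cells (32.0%). Immature neutrophil-like cells had only 5.76%, and their thinned share was 2.96%. Cells that should lack the gene give the background: 10 of 621 B lineage-like cells (1.61%, thinned 0.567%) and 20 of 767 T cell-like cells (2.61%) had a UMI. The median relative depth was 0.592 in Neutrophil-like, 1.42 in cluster 0, 1.10 in B lineage-like and 1.29 in T cell-like cells, so the class with the highest share was the shallowest of these. Tumor epithelial-like cells had 44 of 782 (5.63%). Without the shared barcodes the share stayed at 81.6% in Neutrophil-like cells and was 44.1% in Macrophage-like cells, whereas it was 30.2% (42 of 139) in Classical monocyte-like and 22.3% (23 of 103) in cDC2-like cells.

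Neutrophil-like cells were 5.35% of fl_fl cells and held 25.0% of the 10853 Il1b UMIs counted, a lower limit because 8 cells were cut at the maximum. Cluster 0 held 33.9%, Macrophage-like cells 21.2% and Classical monocyte-like cells 8.86%. With the shared barcodes left out, 5785 UMIs remained, of which Neutrophil-like cells held 46.1%, Macrophage-like cells 34.8% and cDC1-like cells 7.45%. The mean score above the zero level in fl_fl Neutrophil-like cells was 2.97 times that of cluster 0, 6.41 times that of Classical monocyte-like, 8.28 times that of Macrophage-like and 64.1 times that of Immature neutrophil-like cells. These folds are on the linear scaled level and are understated where Neutrophil-like cells were cut.

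Il1r2, the decoy receptor, was also highest in Neutrophil-like cells in both libraries, at 2.09 (SD 2.76) in Ahr_cKO and 2.08 (SD 2.98) in fl_fl. All other classes averaged below 0.3. The next places went to cDC2-like cells (0.23 in Ahr_cKO and 0.05 in fl_fl), cluster 0 (0.14 and 0.13) and cDC1-like cells (0.13 and 0.25), and their order differed between the libraries. The spread over cells in cDC1-like cells was 1.05 in Ahr_cKO and 1.18 in fl_fl, larger than the steps between these 3 classes.

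Of fl_fl Neutrophil-like cells 60.8% (54.8 to 66.6) had an Il1r2 UMI, and 48.2% after thinning. Cluster 0 had 33.5% (11.97% thinned) and cDC1-like cells 27.3% (20.8 to 34.6, 16.4% thinned). Immature neutrophil-like cells had 18.5% but only 3.69% after thinning, and their cells with an Il1r2 UMI had a median relative depth of 5.76. Granulocyte progenitor-like cells had 18 of 163 (11.04%, 7.85% thinned). None of 621 B lineage-like cells had one, which by the rule of 3 counts over the total allows up to 0.483% of cells with a UMI, and 18 of 767 T cell-like cells did (2.35%). Leaving out shared barcodes gave 59.2% in Neutrophil-like cells but 2 of 139 Classical monocyte-like cells, against 47 of 354 with them, and 1 of 103 cDC2-like cells, against 15 of 142 with them. Of the 1517 Il1r2 UMIs Neutrophil-like cells held 30.1%, cluster 0 21.6% and cDC1-like cells 15.7%. Of the 981 outside the shared barcodes these classes' shares were 42.2% for Neutrophil-like and 23.5% for cDC1-like cells.

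Set against the agonist, the decoy's transcripts were unevenly spread over fl_fl classes. Neutrophil-like cells had 16.8 Il1r2 UMIs per 100 Il1b UMIs, cluster 0 had 8.92 and Macrophage-like cells had 6.32. In cDC1-like cells the number was 54.6, although a single cDC1-like cell held up to 49 Il1r2 and another or the same cell up to 124 Il1b UMIs. Immature neutrophil-like cells, with few UMIs of either gene, had 103. Classical monocyte-like cells had 8.94 with the shared barcodes and 1.54 without them, and cDC2-like cells 16.0 with and 0.943 without. These ratios count captured molecules of 2 genes whose capture may differ, so they are compared between classes and not read as absolute ratios.

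**Figure D1:**
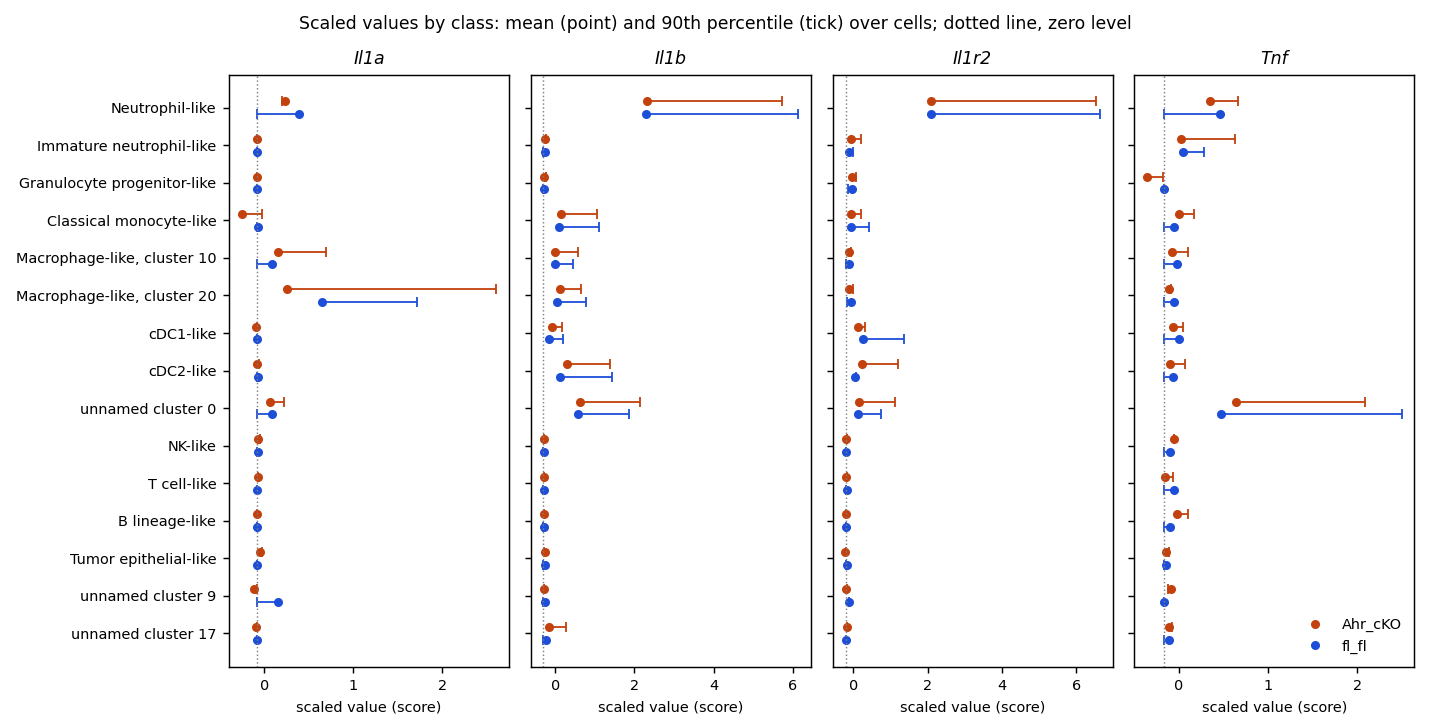
Scaled score of Il1b, Il1a, Il1r2 and Tnf by cell class, with Ahr_cKO above fl_fl in each class. Points are means over cells, ticks the 90th percentile (below the mean where few cells are high) and dotted lines the zero level. Il1b and Il1r2 stand out in Neutrophil-like cells (means of 2.32 and 2.09 in Ahr_cKO, 2.29 and 2.08 in fl_fl), while Tnf is highest in cluster 0.

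Il1a, the agonist that is active without processing, was rare: 120 fl_fl cells in all were above the zero level, and 189 UMIs were counted. Its highest class means were in Neutrophil-like cells (0.23, SD 2.03, in Ahr_cKO and 0.38, SD 1.91, in fl_fl) and Macrophage-like cells (0.19, SD 1.72, in Ahr_cKO and 0.29, SD 1.59, in fl_fl), and these 2 classes did not differ beyond their spread. Cluster 0 had 0.06 in Ahr_cKO and 0.09 in fl_fl. Within Macrophage-like cells, Arg1-led cluster 20 had a mean of 0.26 (SD 2.34) in Ahr_cKO and 0.65 (SD 2.24) in fl_fl, and C1qa-led cluster 10 had 0.15 (SD 1.16) in Ahr_cKO and 0.09 (SD 1.00) in fl_fl.

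In fl_fl, 41 of 228 cluster 20 cells had an Il1a UMI (17.98%, 13.2 to 23.6), against 22 of 401 cluster 10 cells (5.49%). Cluster 20 was also deeper (median 2.01, against 0.902 in cluster 10), and after thinning the shares were 4.81% and 1.86%. Neutrophil-like cells had 6.47% (3.88 to 10.0) and kept 5.32% after thinning, cluster 0 had 6.36% and kept 1.52%. Of 621 B lineage-like cells none had an Il1a UMI, of 767 T cell-like cells 1, and of 354 Classical monocyte-like cells 2. Macrophage-like cells held 58.7% of the Il1a UMIs (70.8% outside the shared barcodes), cluster 0 16.4% and Neutrophil-like cells 14.8%. So the class with the most Il1a molecules was Macrophage-like, while Il1b and Il1r2 molecules outside the shared barcodes were most numerous in Neutrophil-like cells.

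Tnf, the other inflammatory cytokine, had no single leading class. Cluster 0 averaged 0.64 (SD 1.89) in Ahr_cKO and 0.47 (SD 1.57) in fl_fl, and Neutrophil-like cells averaged 0.35 (SD 1.69) in Ahr_cKO and 0.46 (SD 2.22) in fl_fl. In fl_fl these 2 means differed by far less than the SD over cells. Immature neutrophil-like cells followed with 0.02 in Ahr_cKO and 0.04 in fl_fl. Cluster 0 had a Tnf UMI in 80 of 346 fl_fl cells (23.1%, 18.8 to 27.9, thinned 6.79%). Immature neutrophil-like cells had 13.03% (3.06% thinned) and Neutrophil-like cells 8.63% (5.61 to 12.6, 5.28% thinned). T cell-like cells had 4.43%, cDC1-like cells 5.23%, cluster 10 5.49% and cluster 20 4.39%. B lineage-like cells had 11 of 621 (1.77%) and Tumor epithelial-like cells 10 of 782.

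The 407 Tnf UMIs were spread over several classes. Cluster 0 held 33.7%, Immature neutrophil-like cells 14.3%, T cell-like cells 11.8%, Macrophage-like cells 10.8% and Neutrophil-like cells 8.35%. In the same order these classes were 6.66%, 6.35%, 14.8%, 12.1% and 5.35% of fl_fl cells. T cell-like and Macrophage-like cells thus held less than their share of cells. Outside the shared barcodes 241 UMIs remained, with 24.1% in Immature neutrophil-like cells (7.25% of those cells) and 19.9% in T cell-like cells (16.7%). Macrophage-like cells held 14.5% of them (12.9% of cells) and Neutrophil-like cells 14.1% (5.88% of cells). Counts of 19 cells were cut at the maximum, so these totals are lower limits.

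**Figure D2:**
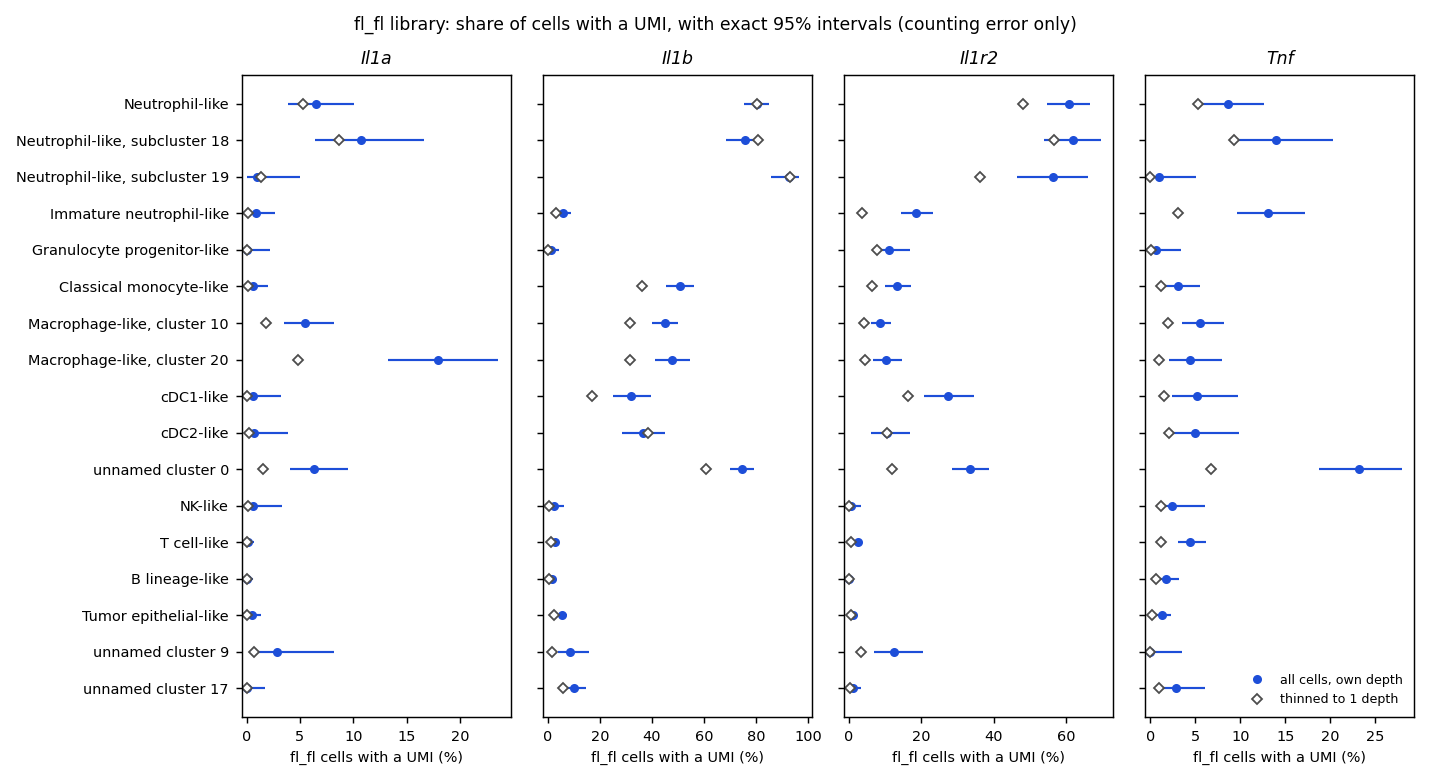
Percent of fl_fl cells with at least 1 UMI of each gene by class, with exact 95% binomial intervals, which cover counting error only, and as diamonds the shares thinned to 1 depth. Il1b reaches 80.6% and Il1r2 60.8% in Neutrophil-like cells, while Il1a stays under 20% in every class and cluster shown.

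Neutrophil-like cells were divided further at a finer resolution, a division chosen after the data were seen. Subcluster 18 was led by the immediate early and chemokine genes Ier3, G0s2, Cxcl2 and Egr1, and subcluster 19 by Wfdc17, Retnlg, Csf3r and Cxcr2. In fl_fl, Il1a UMIs were in 17 of 158 subcluster 18 cells (10.8%) and in 1 of 108 subcluster 19 cells, and Tnf UMIs in 22 of 158 (13.9%) and in 1 of 108. Il1b went the other way, at 75.9% in subcluster 18 and 92.6% in subcluster 19, and Il1r2 was similar at 62.0% and 56.5%. In Ahr_cKO the scores showed the same contrast for Il1a, with means of 0.52 (SD 2.81) in subcluster 18 and -0.09 (SD 0.06) in subcluster 19, and for Tnf, with 0.67 (SD 2.09) and 0.05 (SD 1.14). All 10 Ahr_cKO Neutrophil-like cells cut at the maximum for Il1a lay in subcluster 18. The subclusters were formed on the other genes of the same cells, so these values describe them and are no test.

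Within fl_fl Neutrophil-like cells, Il1r2 was found in 138 of 224 cells with an Il1b UMI (61.6%, 54.9 to 68.0) and in 31 of 54 cells without one (57.4%, 43.2 to 70.8), so the intervals overlap and most cells with the agonist's transcript also had the decoy's. Median relative depths were 0.651 with Il1b and 0.412 without it. Il1a was found in 5 of 24 cells with Tnf (20.8%, 7.13 to 42.1) and in 13 of 254 without it (5.12%, 2.75 to 8.59), and these intervals overlap. The median relative depth was 0.61 in the cells with Tnf and 0.588 in those without. In cluster 0, Il1r2 was found in 108 of 259 cells with Il1b (41.7%) and in 8 of 87 without it (9.20%), with depths of 1.68 and 1.13. In cluster 20, Il1b was found in 32 of 41 cells with Il1a (78.0%, depth 3.96) and in 77 of 187 without it (41.2%, depth 1.59). The part of depth in these contrasts was not tested.

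Between genotypes, the means of Il1b and Il1r2 differed by less than 0.1 in Neutrophil-like cells, where both were highest, but this held only for some ways of drawing and summarising the class. The Ahr_cKO minus fl_fl difference of mean scores was 0.03 for Il1b and 0.01 for Il1r2, and -0.01 and -0.02 without the shared barcodes. For Il1b it was 0.19 when the class was drawn at resolution 2 and 0.15 with 15 components, and for Il1r2 it was 0.11 at resolution 2 and 0.27 between medians. Il1a was lower in Ahr_cKO by a difference of -0.16 and Tnf by -0.11, so with the class as first drawn 2 of the 4 genes were at least 0.1 lower and none at least 0.1 higher; over all 2000 genes 4.60% were that much lower and 5.45% that much higher. Without the shared barcodes the differences were -0.18 for Il1a and -0.16 for Tnf. The Il1a difference rested on few cells: 10 of 250 Ahr_cKO cells and 18 of 278 fl_fl cells were at least 1 above the zero level, and 10 and 6 of them were cut at the maximum. After an estimate of the Ahr_cKO shift was removed, the Il1a difference was 0.006 with one form of the estimate and -0.12 with the other, so its direction was not settled. For Tnf the same estimates gave -0.15 and -0.22, and 19 of 250 Ahr_cKO cells and 24 of 278 fl_fl cells were at least 1 above the zero level. The difference of Tnf medians was 0.032, of the other sign. With a Tnf UMI in 8.63% of these fl_fl cells, the fl_fl median is the zero level, so the medians do not decide the direction. Il1b and Il1r2 were in too many Neutrophil-like cells for this estimate to be made.

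In Macrophage-like cells none of the 4 genes differed by 0.1, against 3.20% of all genes lower and 7.35% higher. The nearest was Il1a at -0.0991, and -0.0947 without the shared barcodes, but it was 0.009 with 15 components and 0.07 and -0.06 with the shift estimates removed. Its largest difference between deposited means in any class or cluster compared was in cluster 20, at -0.39 with and -0.39 (-0.386) without the shared barcodes, where 5.45% of genes were at least 0.1 lower. With the shift estimate removed it was 0.04 by one form and -0.15 by the other. There, 28 of 167 Ahr_cKO cells (16.8%) and 30 of 228 fl_fl cells (13.2%) were at least 1 above the zero level, whereas 4 Ahr_cKO cells and 9 fl_fl cells were cut at the maximum, and 70.1% of Ahr_cKO cells lay below the zero level that a cell without UMIs has in fl_fl. The mean and the share of high cells thus ran in opposite directions. In Classical monocyte-like cells Il1a was at -0.18 (2.45% of genes at least 0.1 lower), at -0.03 without the shared barcodes, and at -0.06 and -0.18 with the shift estimates removed. There the fl_fl mean was -0.07, close to the zero level of -0.08, and 2 of 354 fl_fl cells had a UMI. The Ahr_cKO mean of -0.25 lay below that level, so this difference does not show fewer Il1a molecules.

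Il1r2 in cDC1-like cells was lower in Ahr_cKO, at a difference of -0.12, in a class where 11.8% of all genes were at least 0.1 lower. It was also -0.12 without the shared barcodes, and -0.20 and -0.22 with the shift estimates removed. The difference of medians was 0.13, of the other sign. With an Il1r2 UMI in 27.3% of these fl_fl cells, the fl_fl median is the zero level, so the medians do not decide the direction. At least 1 above the zero level were 9 of 110 Ahr_cKO cells (8.18%) and 26 of 172 fl_fl cells (15.1%). In cDC2-like cells Il1b was at 0.16 and Il1r2 at 0.18, where 13.7% of genes were at least 0.1 higher, and 50.7% of the Ahr_cKO cells carried shared barcodes. With the shift estimates removed Il1b was there at 0.03 and 0.04, under the size counted, and Il1r2 at 0.16 and 0.13. In cluster 0 Tnf was at 0.17, where 3.05% of genes were at least 0.1 higher, and the shift estimates turned it to -0.01 and -0.09. That cluster consisted almost wholly of shared barcodes. In T cell-like cells Tnf was at -0.11 (8.85% of genes lower by that much) and at 0.06 and 0.003 with the shift estimates removed. In the Neutrophil-like subclusters, Il1a was at -0.17 and Tnf at -0.20 in subcluster 18 (6.55% of genes at least 0.1 lower), and Tnf at 0.12 in subcluster 19. Without the shared barcodes these 3 differences were -0.25, -0.20 and 0.01. With the shift estimates removed Il1a in subcluster 18 was at 0.14 by one form, of the other sign, and at -0.10 by the other, and Tnf there at -0.28 and -0.40. Il1r2 was 0.37 higher in Ahr_cKO in subcluster 18 (7.90% of genes at least 0.1 higher) and was at -0.22 in subcluster 19 (5.40% of genes at least 0.1 lower), or 0.36 and -0.41 without the shared barcodes. Il1b was 0.09 in subcluster 18 and 0.32 in subcluster 19, where 8.15% of genes were at least 0.1 higher, and at 0.27 there without the shared barcodes. In Immature neutrophil-like, B lineage-like, NK-like and Tumor epithelial-like cells, and in clusters 10 and 17, none of the 4 genes differed by 0.1. Of all genes, 12.3% differed by that much in Immature neutrophil-like, 6.45% in B lineage-like, 13.8% in NK-like cells, 13.6% in cluster 10, 26.4% in cluster 17 and 40.1% among Tumor epithelial-like cells. Il1b in cluster 10 was at -0.10 without the shared barcodes and at -0.01 with them, and Tnf in Immature neutrophil-like cells at -0.02, or at 0.17 and 0.10 with the shift estimates removed.

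**Figure D3:**
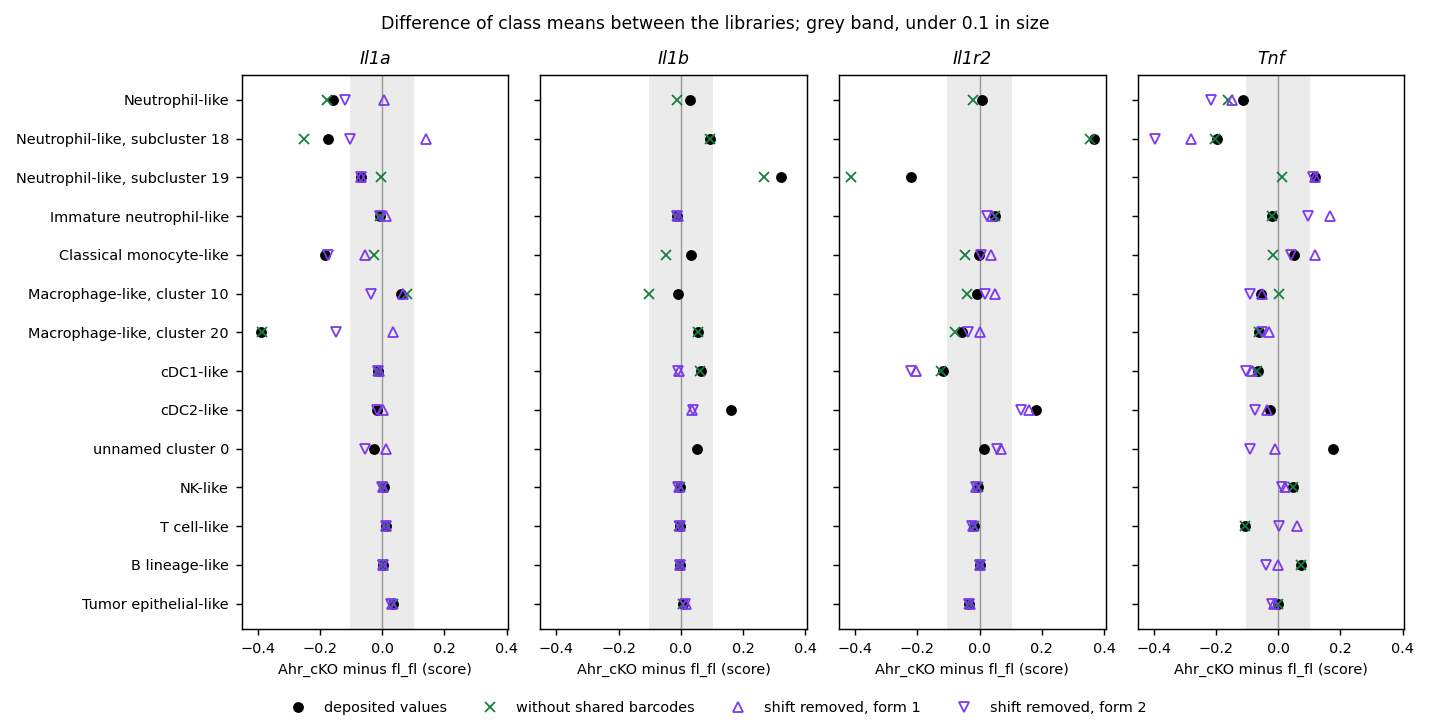
Ahr_cKO minus fl_fl difference of the mean scaled score for each gene by class, for all cells, without shared barcodes and with the estimated shift removed. No error between samples exists with 1 library per genotype. Il1a in cluster 20 is at -0.39 between deposited means and at 0.04 and -0.15 by the 2 forms of shift removal, and Il1r2 in subcluster 19 at -0.22 with and -0.41 without the shared barcodes.

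Over 21 clusters, the cluster means of Il1b and Il1r2 ran together most closely among the 6 pairs of the 4 genes, at r = 0.948 in Ahr_cKO and 0.956 in fl_fl. Both genes were highest in Neutrophil-like cluster 12, which weighs heavily on this r, and no value without that cluster is given. Il1b and Tnf had 0.624 in Ahr_cKO and 0.795 in fl_fl, and Il1a and Tnf the least, 0.270 in Ahr_cKO and 0.376 in fl_fl. Of 1802 other genes considered in the fl_fl library, those most like Il1b were Wfdc17 (r = 0.981), Hcar2, Acod1, Dusp1 and Cxcl3 (0.962), and Wfdc17 stayed at 0.886 without the cluster highest in Il1b. Il1r2 was most like Stfa2l1 (0.973), the G-CSF receptor gene Csf3r, Gm5483, Hcar2 and Egr1 (0.963), but without Neutrophil-like cluster 12 they were between 0.151 and 0.479. Il1a was most like Ccl6 (0.917), the transglutaminase gene Tgm2 (0.915), the inducible nitric oxide synthase gene Nos2, Egln3 and Olr1 (0.847). Without cluster 20, the highest in Il1a, they were between 0.615 (Olr1) and 0.847 (Egln3), with Nos2 at 0.618 and Ccl6 at 0.770. In Ahr_cKO they were between 0.567 and 0.764. Tnf was most like the chemokine gene Cxcl2 (0.906), the C-type lectin genes Clec4e and Clec4d, Osm and Ccrl2 (0.876), and without cluster 0 they stayed between 0.840 and 0.868. Clusters of 1 library share depth and handling, so these values are descriptions.

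The genes that process, receive and answer these cytokines were taken from 7 lists with 80 genes, of which 24 were measured. None of the 10 inflammasome and processing genes and none of the 6 TNF receptor and shedding genes was among the 2000. The receptor antagonist gene Il1rn, whose product blocks IL1R1, had a UMI in 54.6% of fl_fl cluster 0 cells, 39.9% of Neutrophil-like cells and 30.3% of cluster 20 cells. The shares of pathway genes were not thinned. Cluster 0 (median relative depth 1.42) and cluster 20 (2.01) were deeper than Neutrophil-like cells (0.592). By mean fl_fl score Il1rn was higher in Neutrophil-like cells (1.36) than in cluster 0 (0.73) or cluster 20 (0.33). The IL-36 gamma gene, listed as Il1f9, was in 21.6% of Neutrophil-like cells. The signalling receptor gene Il1r1 was in 20 of 104 cells of cluster 9 (19.2%), a cluster led by hemoglobin and collagen genes, and in 4.60% of Tumor epithelial-like cells. The alarmin gene Il33 was in 17.3% of cluster 9 and 10.9% of Tumor epithelial-like cells. Among genes that interleukin-1 and TNF induce, Cxcl2 was in 76.0% of cluster 0 and 66.5% of Neutrophil-like cells, and the cyclooxygenase gene Ptgs2 in 37.6% and 19.4%. Their mean fl_fl scores ran the other way. Cxcl2 averaged 1.14 in cluster 0 and 1.75 in Neutrophil-like cells, and Ptgs2 0.67 and 0.97.

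**Figure D4:**
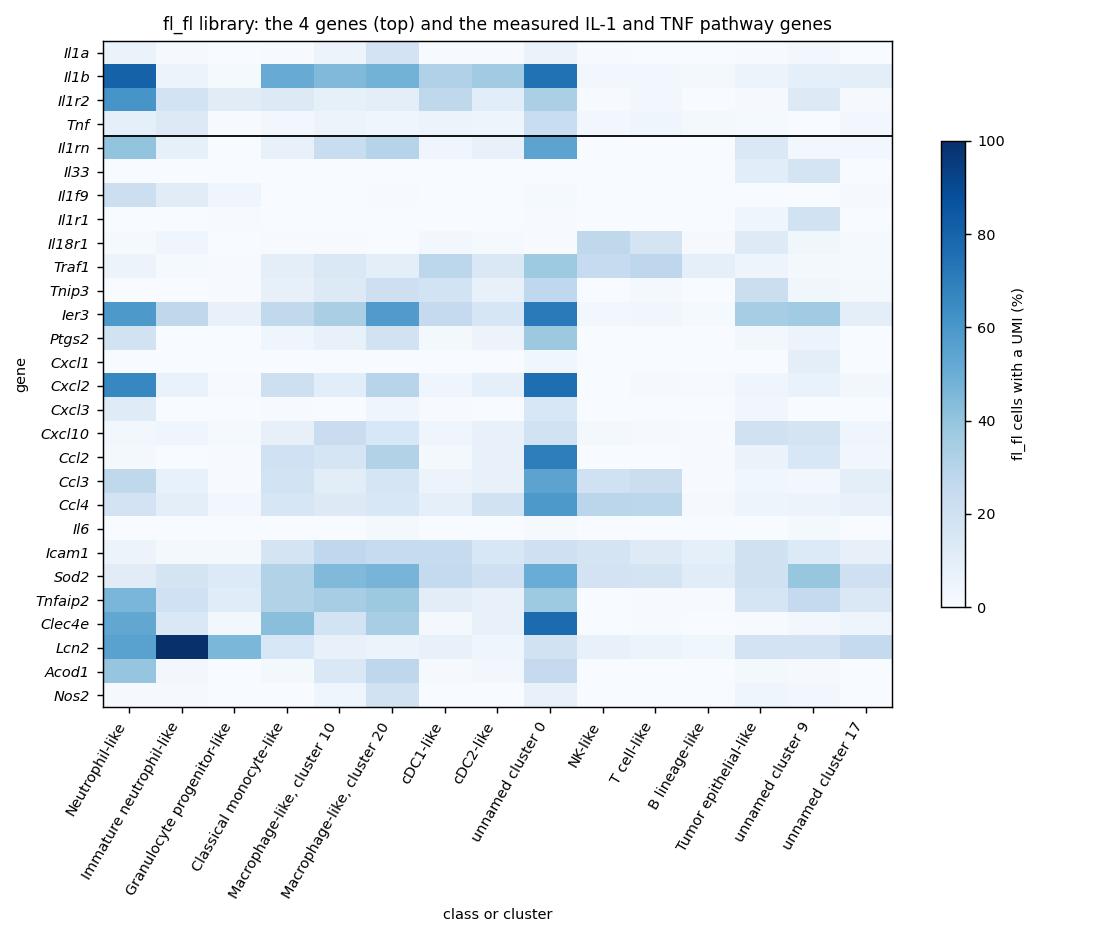
Percent of fl_fl cells with at least 1 UMI (colour, 0 to 100%) of the 4 genes (top rows) and of the 24 measured pathway genes (rows) in each class or cluster (columns). Il1rn is darkest in cluster 0 (54.6%) and Neutrophil-like cells (39.9%), as is Cxcl2 (76.0% and 66.5%), while Il1r1 and Il33 are highest in cluster 9 (19.2% and 17.3%). These shares are not thinned for depth. Mean fl_fl scores of Il1rn and Cxcl2 were higher in Neutrophil-like cells than in cluster 0.

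In Neutrophil-like cells 5 of the 24 genes were at least 0.1 higher in Ahr_cKO and 4 at least 0.1 lower, with a median difference of 0.0004; over all genes 109 of 2000 were higher and 92 lower, with a median of 0.0000. The 16 induced mediators gave 3 higher and 3 lower. The 4 of largest size were Clec4e at -0.25, Cxcl3 at 0.24, Acod1 at -0.24 and Il1f9 at 0.22. With the shift estimates removed Acod1 was at -0.70 and -0.63 and Il1f9 at 0.59 and 0.39, whereas Cxcl3 turned to -0.10 and -0.19. In Macrophage-like cells 2 genes were higher and 2 lower, against 147 and 64 of all genes. They were Cxcl10 (0.17), an interferon-induced chemokine, Nos2 (0.13), Il6 (-0.15) and the NF-kB feedback gene Tnip3 (-0.11). With the shift estimates removed Il6 turned to 0.20 and 0.01, and Tnip3 was at 0.02 and -0.05. For Cxcl10 and Nos2 in this class, and for Ccl3 in cluster 20 below, no values with the shift removed are given. Cluster 20 had 3 higher and 5 lower, against 176 and 109 of all genes, with Il6 at -0.36, Nos2 at 0.24, Tnip3 at -0.22 and the chemokine gene Ccl3 at -0.19, and the shift estimates turned Il6 to 0.50 and 0.04 and gave 0.05 and 0.02 for Nos2 and 0.01 and -0.07 for Tnip3. The Il6 values rested on few cells, with a UMI in 6 of 629 fl_fl Macrophage-like and 5 of 228 fl_fl cluster 20 cells. Its Ahr_cKO means there, -0.09 and -0.17, lay below its zero level of -0.04. Classical monocyte-like cells had 1 higher and 2 lower, against 80 and 49 of all genes, and Immature neutrophil-like cells 2 higher and none lower, against 101 and 146 of all genes.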

How the data were processed

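Whole-tumor single cells were measured with 10X Genomics chemistry, 1 library per genotype. The authors deposited 1 table of scaled scores for 2000 genes, and per the submitters' processing notes Cell Ranger 3.0.0, Seurat 3.1.4 and mm10 (GRCm38) were used. How the libraries were joined is not given in the sources used here. No value was tested, since each genotype had 1 library.

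The zero level and step of each gene were read from the fl_fl cells, and UMIs recovered from them. Cells were clustered on all genes but the 4 (30 principal components, 15 neighbours, Leiden resolution 1; scanpy 1.11.5, igraph 0.11.9, Python 3.11.15). A cluster was named from marker lists where the best class's mean marker score reached 0.5 with at least 3 measured markers, the best class of another family was under 0.5 times that, and the 10 leading genes held no more markers of another class. Depth is 1 divided by the step that 1 UMI makes in a cell's values once each gene's scale is taken out, relative to the fl_fl median. Possible doublets (264 Ahr_cKO and 360 fl_fl cells, with 3 markers of each of 2 families) were kept. A class was compared between genotypes with at least 50 cells per library, and a difference of at least 0.1 was counted. The shift of an Ahr_cKO cell was estimated from its 30 nearest cells (0.3 quantile) or 50 nearest cells (0.5 times the fl_fl share at zero), for genes in under 40% of fl_fl cells. Both were tried on the fl_fl library cut in 2 parts, with known changes made in 1 part and that part then moved toward the other. The check required only that the 30-cell form gave the right sign more often than the moved values. That move was assumed, so the accuracy of either form on the deposited values is not known.

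The genes named are the 4, the 5 most like each over clusters with at least 50 fl_fl cells (genes in at least 5% of fl_fl cells of some cluster), at most 4 per class of the pathway lists, and Ahr. Pathway genes whose levels are given were picked from the lists. Members and lists were chosen with earlier results of these data known. The naming thresholds, the subclusters, thinning and the removal of shared barcodes were chosen after the data were seen.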

Additional observations from a re-analysis of the deposited data

Results flagged for a closer look

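The sign of Il1r2's difference between Ahr_cKO and fl_fl was not the same in both dendritic cell classes: it was 0.18 in cDC2-like cells and -0.12 in cDC1-like cells. With medians in place of means the cDC1-like value was 0.13, so the contrast of signs holds for means. An Il1r2 UMI was in 27.3% of fl_fl cDC1-like cells, so their median is the zero level and medians do not decide the sign. Shared barcodes made up 50.7% of the Ahr_cKO and 27.5% of the fl_fl cDC2-like cells, and without them 1 of 103 fl_fl cDC2-like cells had an Il1r2 UMI. The difference between the classes was not tested.

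Tnf's difference was 0.17 in cluster 0 and -0.11 in Neutrophil-like cells. Shared barcodes made up 99.1% of the Ahr_cKO and 94.2% of the fl_fl cells of cluster 0, and with the shift estimates removed its value was -0.01 and -0.09. With medians the Neutrophil-like value was 0.032, but 8.63% of those fl_fl cells had a Tnf UMI, so their median is the zero level. This difference was not tested either.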

How the results depend on the processing

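No paired analysis was possible because each genotype had 1 library. Of the class shares and differences that answer a comparison, 150 recomputed values stayed within the limits set for them, 24 moved and 2, both differences of at least 0.1, turned to the other sign; sign changes of smaller differences are counted among the first 2 kinds. Counting only fl_fl cells at least 1 above the zero level, shares were 64.0% for Il1b and 51.4% for Il1r2 in Neutrophil-like cells, 7.15% for Il1a, 9.70% for Il1b and 2.86% for Tnf in Macrophage-like cells, 14.97% for Il1b in Classical monocyte-like cells and 15.1% for Il1r2 in cDC1-like cells. Without shared barcodes Il1b in Classical monocyte-like cells was 30.2%. In Neutrophil-like cells the difference for Il1a was 0.000 with medians and 0.006 with the shift removed. For Il1b it was 0.19 at resolution 2, 0.15 with 15 components and 0.18 with subclusters weighted as in fl_fl. For Il1r2 it was 0.11 at resolution 2 and 0.27 with medians. For Tnf it was 0.032 with medians and -0.22 with the second shift estimate. In Macrophage-like cells Il1a was 0.009 with 15 components and 0.071 with the shift removed, and in cDC1-like cells Il1r2 was 0.13 with medians. The cause of these changes was not tested. For Il1a and Tnf in Neutrophil-like cells and for Il1r2 in cDC1-like cells, most fl_fl cells had no UMI. Their fl_fl medians are therefore the zero level, and differences of medians there do not measure the genes' levels. Of the pathway genes, 2 were higher in Neutrophil-like cells at a size of 0.2. In Macrophage-like cells 1 was higher at resolution 0.5, with 15 components or with the members used in clustering, 1 lower at resolution 2, and 0 higher and 0 lower at a size of 0.2. Single-gene values outside these comparisons gave 130 that stayed, 11 that moved and 1 difference of at least 0.1 that changed sign. Depth limits Il1a and Tnf most, with 120 and 272 fl_fl cells above the zero level.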
